A study of Mus musculus with 15 samples.

Results

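The genes described here are 8 CC chemokine genes outside the monocyte chemoattractant cluster, namely *Ccl3*, *Ccl4*, *Ccl5*, *Ccl6*, *Ccl9*, *Ccl17*, *Ccl22* and *Ccl24*. They were taken by symbol, by a rule that uses no measured value, from a matrix of raw counts for 53465 mouse gene identifiers. Bone marrow-derived macrophages (BMDMs), macrophages grown from marrow cells in 20 ng/ml M-CSF over 7 days, were left without added cytokine (control) or exposed over 24 h to IL-4, IL-4/IL-6, IL-13 or IL-13/IL-6. IL-4 was given at 10 ng/ml, and IL-13 and IL-6 each at 40 ng/ml. Each of the 5 groups held 3 libraries, which gave 15 in all. The study calls the libraries with IL-4, alone or with IL-6, biological replicates, while the labels name no separate animals or cultures, so p-values measure the spread between these libraries. Per the study's methods, the marrow came from young adult mice of 1 line, which all groups, control included, share. There was no group with IL-6 alone, and IL-4 and IL-13 were used at different doses, so a difference between IL-4 and IL-13 is a difference between these doses of them.

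CC chemokines are small secreted proteins that draw leukocytes along a concentration gradient by binding G protein-coupled receptors on the target cell. CCL24, or eotaxin-2, acts on CCR3 of eosinophils, CCL17 and CCL22 act on CCR4 of T helper 2 and regulatory T cells, CCL3, CCL4 and CCL5 draw monocytes and T cells, CCL3 and CCL5 by way of CCR1, and CCL6 and CCL9 are rodent chemokines that bind CCR1. *Ccl17*, *Ccl22* and *Ccl24* are commonly used as marker genes of macrophages alternatively activated by IL-4 or IL-13, cytokines which signal through STAT6, while *Ccl3*, *Ccl4* and *Ccl5* are better known as genes induced by microbial products through NF-kB or by interferon. IL-6 signals through gp130 to STAT3 and ERK.

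In outline, *Ccl24* was raised by both IL-4 and IL-13 and much further by co-addition of IL-6. *Ccl4* and *Ccl9* followed the same direction with smaller changes. *Ccl3* and *Ccl6* rose over the single cytokine when IL-6 was added to IL-13 and were not called when it was added to IL-4. *Ccl22* was highest in control, *Ccl5* was low and varied between libraries of a group, and *Ccl17* stayed at the limit of detection in nearly all libraries.

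The libraries held between 17001352 and 18918686 counts. The biological coefficient of variation between the replicates of a group, the part of their spread that counting error does not account for, was 4.48% in control, 4.54% in IL-4, 14.8% in IL-4/IL-6, 10.9% in IL-13 and 7.38% in IL-13/IL-6, and IL-4/IL-6 replicate 2 and, less so, IL-13 replicate 1 stood apart from the other 2 libraries of their groups, so calls that depend on either are also given without it. The macrophage markers *Adgre1*, *Csf1r*, *Cd68*, *Itgam*, *Mertk*, *Fcgr1*, *Lyz2* and *Cd14* were all present in every group, with a summed level between 18930 and 21110 normalized CPM (CPM, counts relative to the library size after TMM scaling) in control, 10900 and 12700 in IL-4/IL-6, 13930 and 14820 in IL-13/IL-6, 14310 and 14780 in IL-4, and 17050 and 19800 in IL-13. Of these 8, 5 were lower and 1 was higher in IL-4 than in control (35.9% and 32.1% of all genes were called lower and higher). In IL-13, 3 were lower and 3 higher (31.1% and 29.0%). In IL-4/IL-6, 5 were lower and 3 higher (37.5% and 35.4%). In IL-13/IL-6, 4 were lower and 4 higher (32.1% and 31.9%). The control libraries also stood apart in markers of other cells. Markers of neutrophils summed to between 468.2 and 557.3 normalized CPM in control and to between 0.979 and 2.41 in the 12 treated libraries. With treated levels this low, such genes could pass the filter on low counts through control alone, so their falls are not counted. Markers of mast cells, basophils and eosinophils summed to between 39.5 and 46.3 normalized CPM in control and to at most 5.73 in the treated libraries. In these bulk libraries, fewer cells of a type and less RNA per cell cannot be told apart, and the part of such cells in a difference between control and a treated group was not tested.

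**Figure D1:**
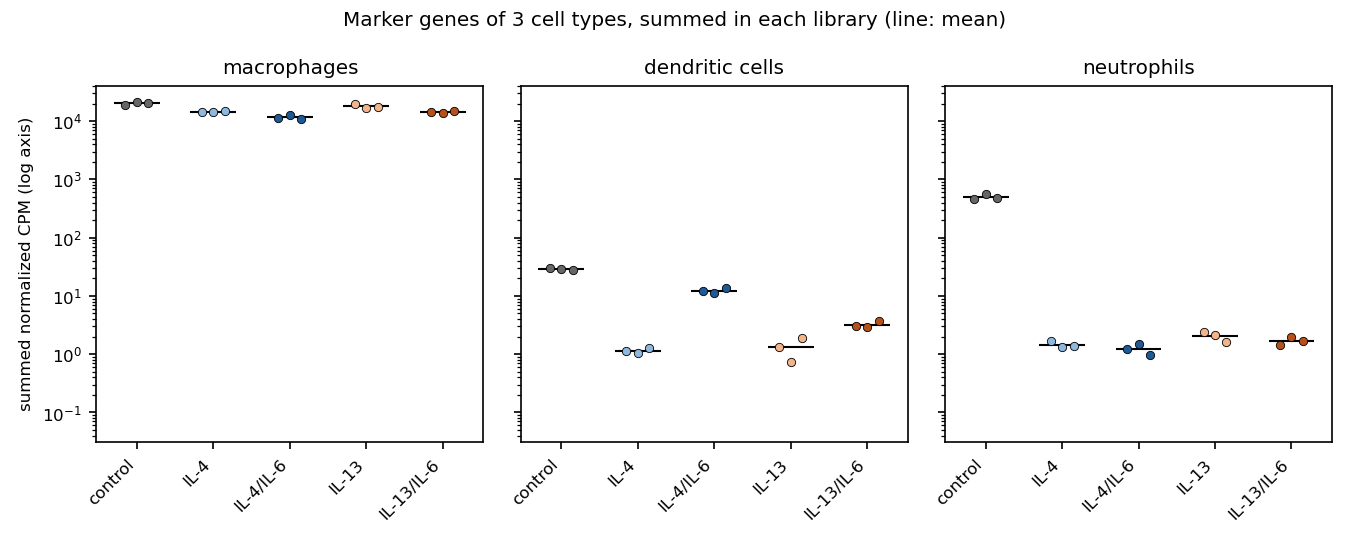
Summed normalized CPM of the marker genes of macrophages, dendritic cells and neutrophils in each library (points, 3 per group) on a shared log axis, with the mean of the group as a line. Neutrophil markers lay above 468 in the 3 control libraries and below 2.5 in all others, whereas dendritic cell markers were highest in control and next highest in IL-4/IL-6.

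Of the 8 members, 7 passed the filter on low counts and were tested, and *Ccl17* did not pass. IL-4 raised 4 of these 7 over control, *Ccl24*, *Ccl4*, *Ccl9* and *Ccl3*, where 32.1% of all 13938 tested genes were called higher, and lowered 1, *Ccl22*, where 35.9% were called lower. IL-13 raised 3, *Ccl24*, *Ccl4* and *Ccl9*, against 29.0% of all genes, and lowered 1, *Ccl22*, against 31.1%. A gene was called where edgeR's quasi-likelihood fit gave it an adjusted p under 0.05, in the direction of the log2 fold change. With shares of this size called over all genes, the counts of members alone do not set these genes apart. The median log2 fold change of the 7 was 0.29 for IL-4 (-0.05 over all genes) and 0.08 for IL-13 (-0.02 over all genes).

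Co-addition of IL-6 to IL-4 raised 3 members over IL-4, *Ccl24*, *Ccl4* and *Ccl9* (20.7% of all genes called higher), and lowered 1, *Ccl22* (18.7% called lower). Co-addition of IL-6 to IL-13 raised 5 members over IL-13, the same 3 genes with *Ccl3* and *Ccl6* (12.1% called higher), and lowered 1, *Ccl22* (13.5% called lower). The median log2 fold change of the 7 was 0.22 with IL-4 (0.04 over all genes) and 0.63 with IL-13 (0.01 over all genes). The split of calls over all genes depended on the scaling. When IL-4/IL-6 was set against IL-4 it was 2885 higher and 2603 lower with TMM but 2073 and 3245 with upper-quartile factors and 2008 and 3281 with library totals alone, and for IL-13/IL-6 over IL-13 it was 1684 and 1879 with TMM but 1268 and 2325 with library totals alone.

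Over control, IL-4/IL-6 raised 5 members (35.4% of all genes called higher) and lowered 1 (37.5% called lower), and IL-13/IL-6 likewise raised 5 (31.9%) and lowered 1 (32.1%). In both comparisons the 5 were *Ccl24*, *Ccl4*, *Ccl9*, *Ccl3* and *Ccl6*, and the 1 was *Ccl22*. These comparisons share their control libraries with those of IL-4 and IL-13. Between the cytokines, 4 members were higher in IL-4 than in IL-13 (*Ccl24*, *Ccl4*, *Ccl3* and *Ccl9*, against 5.16% of all genes) and 0 were lower (7.61% of all genes), also 0 at an unadjusted p under 0.05 in edgeR and 0 in DESeq2. With IL-6 in both arms, 2 members were higher in IL-4/IL-6 relative to IL-13/IL-6 (*Ccl24* and *Ccl9*, 15.8% of all genes) and 2 were lower (*Ccl3* and *Ccl6*, 15.5% of all genes).

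**Figure D2:**
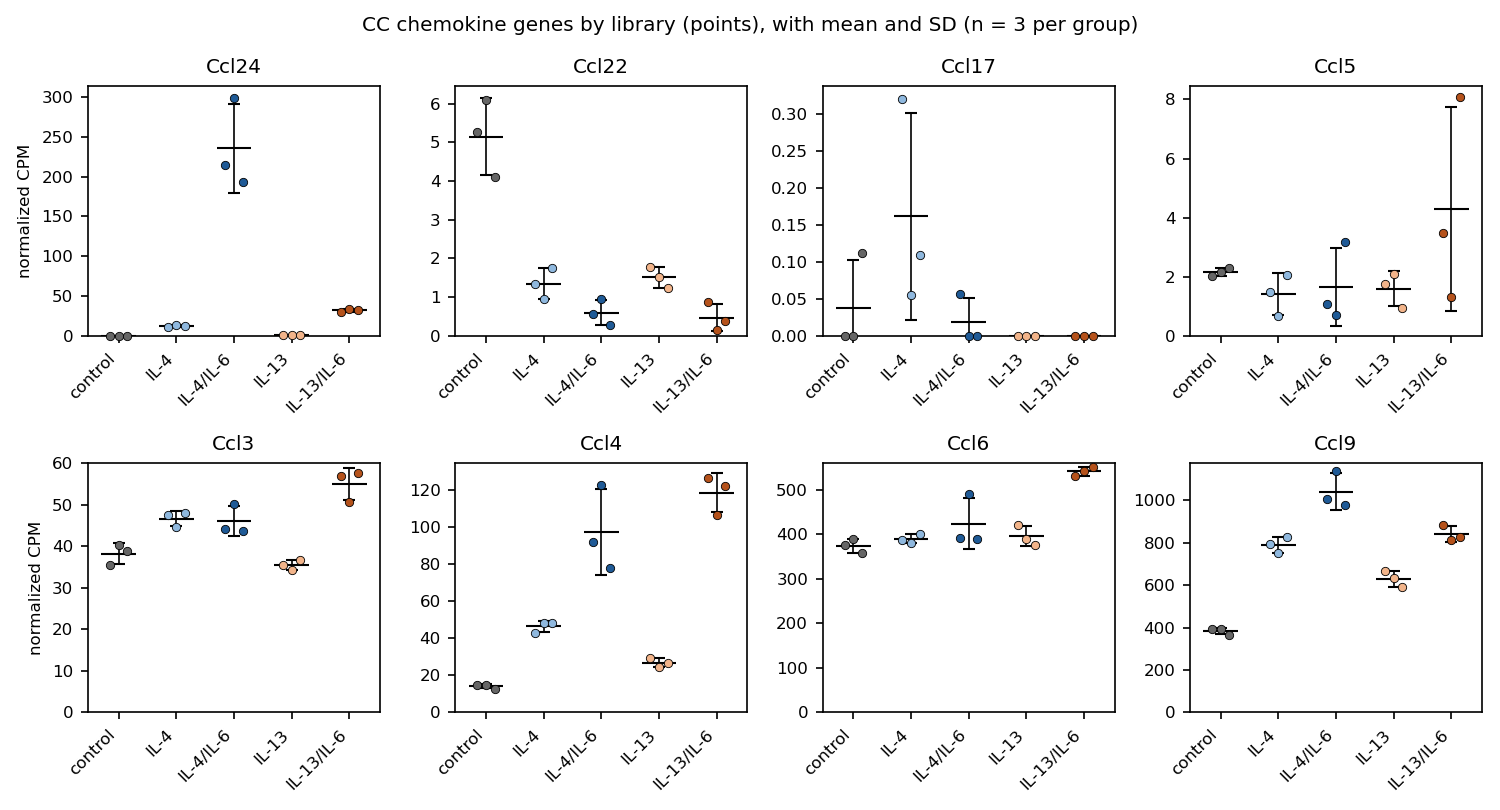
Normalized CPM of the 8 genes in each of the 15 libraries (points), with the mean and SD of each group of 3. The vertical axes start at 0 and differ between genes, since *Ccl17* does not exceed 0.321 and *Ccl9* reaches 1140. *Ccl24* is highest in the 3 IL-4/IL-6 libraries and *Ccl22* in the 3 control libraries.

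The CCR3 ligand *Ccl24* (ENSMUSG00000004814) lies on the minus strand of chromosome 5 (GRCm38, 135569937 to 135573049). Its normalized CPM was 0.104, 0.333 and 0.112 in the control libraries, from counts of 2, 6 and 2. It was 11.6, 13.4 and 12.6 in IL-4 and 215, 299 and 193 in IL-4/IL-6. It was 1.07, 1.18 and 1.24 in IL-13 and 30.3, 33.1 and 32.8 in IL-13/IL-6. No 2 of the 5 groups overlapped, and their order was IL-4/IL-6, IL-13/IL-6, IL-4, IL-13 and control. The group means were 0.183 ± 0.130 (SD, n = 3), 12.5 ± 0.919, 236 ± 55.9, 1.16 ± 0.0843 and 32 ± 1.55 in the order control, IL-4, IL-4/IL-6, IL-13 and IL-13/IL-6.

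With IL-4, *Ccl24* rose by 6.05 on the log2 scale relative to control (SE 0.308, adjusted p = 2.06e-11 in edgeR), and with IL-13 it rose by 2.64 (SE 0.496, adjusted p = 0.000177, edgeR). Only 10 counts of it were found in control, so these changes were also put as a ratio of summed counts with a 95% Clopper-Pearson interval for counting error alone, which gave 68.8-fold (37.2 to 144) for IL-4 and 6.41-fold (3.27 to 14) for IL-13. The same ratio was 1300-fold (704 to 2700) for IL-4/IL-6 and 177-fold (95.8 to 369) for IL-13/IL-6, where the fitted log2 fold changes over control were 10.29 and 7.41. Leaving out control replicate 2, which held 6 of the 10 counts, moved the fitted values to 6.77 for IL-4, 3.36 for IL-13, 11 for IL-4/IL-6 and 8.13 for IL-13/IL-6.

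The comparisons that do not use the control rest on more counts. Adding IL-6 to IL-4 raised *Ccl24* 18.8-fold (log2 fold change 4.24, 95% confidence interval 3.93 to 4.54, adjusted p = 3.07e-13, edgeR), or by a log2 fold change of 4.01 without IL-4/IL-6 replicate 2. Adding it to IL-13 raised the gene 27.4-fold (log2 fold change 4.78, interval 4.35 to 5.20, adjusted p = 9.74e-12, edgeR). The difference between these IL-6 effects was -0.54 on the log2 scale (interval -1.12 to 0.04) and did not pass the test (adjusted p = 0.318, edgeR), although without IL-4/IL-6 replicate 2, the library with the highest *Ccl24*, it was -0.75 with an adjusted p of 0.0121. The gene was 10.7-fold higher in IL-4 than in IL-13 (adjusted p = 1.39e-08, edgeR) and 7.35-fold higher in IL-4/IL-6 relative to IL-13/IL-6 (adjusted p = 8.37e-11, edgeR). Of the 10 markers of mast cells, basophils and eosinophils, 9 had at most 3 counts in every IL-4/IL-6 library, where *Ccl24* was highest, and *Siglecf*, the remaining one, averaged 0.828 normalized CPM there against 4.70 in IL-4 and 14.7 in control. The part of such cells in the level of *Ccl24* was not tested.

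**Figure D3:**
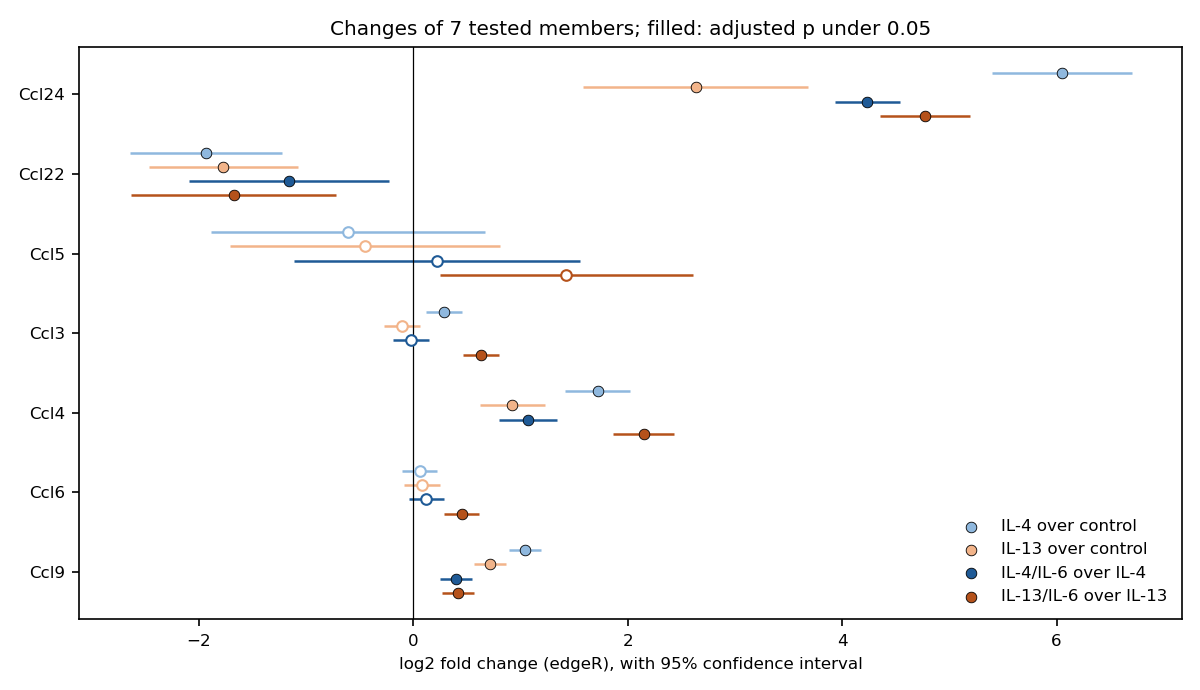
Log2 fold changes of the 7 tested members in 4 comparisons, with 95% confidence intervals from edgeR's quasi-likelihood fit of 15 libraries. Filled points passed an adjusted p of 0.05 and open points did not. The points of *Ccl24* lie farthest to the right and those of *Ccl22* all lie left of 0, while the intervals of *Ccl5* are wide.

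Both CCR4 ligands lie on the plus strand of chromosome 8, *Ccl22* (ENSMUSG00000031779) at 94745590 to 94751699 and *Ccl17* (ENSMUSG00000031780) at 94810453 to 94812036 (GRCm38), with *Cx3cl1* as the only protein-coding gene in the 58753 bases between them. As both genes are widely read as IL-4 targets while *Ccl22* was lower with IL-4 and *Ccl17* had too few counts to test, their promoters are shown, from 250 bases before to 50 bases after the start in RefSeq (GRCm38.p6), 5′ to 3′ on the plus strand. Capitals mark TTC followed by GAA after any 4 bases, a spacing bound by STAT6, or after any 3 bases, a spacing bound by other STAT factors, on either strand. The windows are chr8:94810203-94810502 for *Ccl17* and chr8:94745434-94745733 for *Ccl22*.
Ccl17: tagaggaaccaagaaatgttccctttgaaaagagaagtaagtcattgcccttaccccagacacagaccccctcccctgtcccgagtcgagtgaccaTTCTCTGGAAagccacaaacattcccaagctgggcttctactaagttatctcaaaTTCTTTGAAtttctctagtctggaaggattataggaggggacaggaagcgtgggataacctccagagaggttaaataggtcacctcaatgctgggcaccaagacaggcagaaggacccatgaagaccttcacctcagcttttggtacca
Ccl22: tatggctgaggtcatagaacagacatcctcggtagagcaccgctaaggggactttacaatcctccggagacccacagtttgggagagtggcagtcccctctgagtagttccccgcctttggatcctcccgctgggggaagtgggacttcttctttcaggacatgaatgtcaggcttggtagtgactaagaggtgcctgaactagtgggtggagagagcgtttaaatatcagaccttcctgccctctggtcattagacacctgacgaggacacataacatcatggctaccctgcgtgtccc
The *Ccl17* window held TTCTCTGGAA, from 154 bases before the start, and TTCTTTGAA, from 99 bases before it, and the *Ccl22* window held neither motif. Of 32851 promoters of this length, 6.95% held a match with 4 bases between and 8.30% one with 3. A match is a description of the letters in this window only.

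*Ccl17* had a count of 0 in 10 of the 15 libraries, and 12 counts in all. Its counts were 0, 0 and 2 in control, 6, 1 and 2 in IL-4, and 1, 0 and 0 in IL-4/IL-6. In all 6 libraries with IL-13 the count was 0. A count of 0 allows a level of at most 0.177 normalized CPM in any of the 15 libraries (3 counts in a library, counting error only). IL-4 replicate 1, with 6 counts, was the single library above 3 counts, and no fold change is given for this gene.

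*Ccl22* was low throughout and highest without cytokine. Its normalized CPM was 5.26, 6.1 and 4.1 in control, from 73 to 110 counts. It was 1.34, 0.941 and 1.75 in IL-4 and 1.77, 1.52 and 1.24 in IL-13. It was 0.567, 0.943 and 0.288 in IL-4/IL-6 and 0.868, 0.163 and 0.389 in IL-13/IL-6, from 3 to 16 counts. The control libraries were above all others, IL-4 and IL-13 overlapped, as did IL-4 and IL-4/IL-6, and IL-4/IL-6 and IL-13/IL-6.

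*Ccl22* fell 3.82-fold with IL-4 (log2 fold change -1.94, SE 0.336, adjusted p = 7.56e-05, edgeR) and 3.41-fold with IL-13 (log2 fold change -1.77, SE 0.330, adjusted p = 0.000189, edgeR). Over IL-13, IL-13/IL-6 was a further 3.19-fold lower (adjusted p = 0.00965, edgeR). That call was lost without IL-13/IL-6 replicate 2, the lowest library (adjusted p = 0.0512, edgeR), and its log2 fold change of -1.67 became -2.44 without replicate 1, the highest. Against IL-4 alone, IL-4/IL-6 gave -1.16 on the log2 scale, with an adjusted p of 0.045 in edgeR. The libraries of these groups overlapped, and the call was lost in 7 of the 15 fits that left out 1 library, with adjusted p values between 0.0515 and 0.154. It was also lost with the replicate number as a block (0.0531) and with the control libraries left out of the fit (0.064).

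Dendritic cells are another source of *Ccl17* and *Ccl22*. Of their 8 markers 7 were tested. In every IL-4 library, 5 of the 8 had at most 3 counts. Such genes could pass the filter on low counts through control alone, so falls from control are not counted for this list. With IL-4 and IL-6 together, 1 marker, *Cd209a*, was called above control. The mean of *Zbtb46* was 0.739 normalized CPM in control, against 0.614 in IL-4/IL-6 and 0.509 in IL-4, with no call in either. All 8 of 8 markers were detected in control, where they summed to between 27.8 and 29.7 normalized CPM, with *Ccr7* at 8.43, *Flt3* at 6.38 and *Clec9a* at 3.61 on average. The sum was between 1.05 and 1.26 in IL-4 and between 0.732 and 1.91 in IL-13. *Flt3* was at 0 in all 6 libraries with IL-4. In IL-4/IL-6 the sum was between 11.02 and 13.76, nearly all of it *Cd209a* (11.3 on average), and in IL-13/IL-6 between 2.88 and 3.73, of which *Cd209a* gave 2.14. So *Ccl22* and this sum were both highest in control. Below control they did not keep one order. This sum was next highest in IL-4/IL-6, where *Ccl22* averaged 0.599 normalized CPM, against 1.34 in IL-4 and 1.51 in IL-13. The part of dendritic cells in the level of *Ccl22* was not tested.

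*Ccl3* (ENSMUSG00000000982, minus strand, 83647844 to 83649355) and *Ccl4* (ENSMUSG00000018930, plus strand, 83662584 to 83664683) are neighbours on chromosome 11 (GRCm38) with 13228 bases and no other protein-coding gene between them. Their products are the macrophage inflammatory proteins MIP-1 alpha and MIP-1 beta. For *Ccl4*, the normalized CPM was 14.7, 14.7 and 12.7 in control and 42.8, 47.9 and 48.1 in IL-4. It was 91.5, 123 and 77.6 in IL-4/IL-6 and 29.1, 24.2 and 26.6 in IL-13. It was 126, 106 and 122 in IL-13/IL-6. Control, IL-13 and IL-4 were separate from each other and from both combinations, in this rising order, and the combinations overlapped.

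The means of *Ccl4* were 14 ± 1.13 normalized CPM in control, 46.3 ± 2.98 in IL-4, 26.6 ± 2.43 in IL-13, 97.3 ± 23.1 in IL-4/IL-6 and 118 ± 10.6 in IL-13/IL-6 (SD, n = 3). IL-4 raised it 3.29-fold (log2 fold change 1.72, SE 0.142, adjusted p = 1.19e-08, edgeR). IL-13 raised it 1.9-fold (log2 fold change 0.92, SE 0.144, adjusted p = 3.1e-05, edgeR), which was less than with IL-4 (0.80 on the log2 scale for IL-4 over IL-13, adjusted p = 0.000567, edgeR). Co-addition of IL-6 raised *Ccl4* 2.1-fold over IL-4 (adjusted p = 2.98e-06, edgeR) and 4.43-fold over IL-13 (adjusted p = 1.58e-09, edgeR). IL-4/IL-6 over IL-13/IL-6 gave -0.28 (interval -0.55 to -0.02, adjusted p = 0.1, edgeR) and was not called. It passed in 3 alternatives, with -0.48 (adjusted p = 0.000677, edgeR) without IL-4/IL-6 replicate 2, -0.34 (0.0282) with library totals alone and -0.31 (0.00538) without a filter.

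*Ccl3* changed far less. Its normalized CPM was 35.5, 40.3 and 39 in control and 35.6, 34.4 and 36.6 in IL-13. It was 47.5, 44.6 and 48 in IL-4 and 44.2, 50.3 and 43.8 in IL-4/IL-6. It was 56.9, 50.6 and 57.8 in IL-13/IL-6. The IL-13/IL-6 libraries were the highest, IL-4 and IL-4/IL-6 overlapped in the middle, and control and IL-13 overlapped at the bottom.

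Over control, *Ccl3* rose 1.22-fold in IL-4 (log2 fold change 0.29, adjusted p = 0.00403, edgeR) and 1.44-fold in IL-13/IL-6 (adjusted p = 1.75e-05, edgeR). IL-13 alone gave -0.11 (interval -0.28 to 0.06, adjusted p = 0.255, edgeR). IL-4/IL-6 gave 0.27 over control (adjusted p = 0.00612, edgeR), a call that was lost with library totals alone (0.12, adjusted p = 0.142). Adding IL-6 to IL-13 raised *Ccl3* 1.55-fold (log2 fold change 0.63, interval 0.47 to 0.80, adjusted p = 8.06e-06, edgeR), whereas adding it to IL-4 gave -0.02 (interval -0.19 to 0.15, adjusted p = 0.869, edgeR). *Ccl3* was also lower in IL-4/IL-6 relative to IL-13/IL-6 (-0.26, adjusted p = 0.0184, edgeR), a call lost without IL-4/IL-6 replicate 1 (adjusted p = 0.0571), IL-13/IL-6 replicate 1 (0.0523) or IL-13/IL-6 replicate 3 (0.0633).

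For *Ccl3* and *Ccl4*, the effect of IL-6 differed with the cytokine it was added to. The interaction term, the IL-6 effect with IL-4 minus that with IL-13, was -0.65 for *Ccl3* on the log2 scale (interval -0.89 to -0.42, adjusted p = 0.000983, edgeR). It was -1.08 for *Ccl4* (interval -1.47 to -0.69, adjusted p = 0.000987, edgeR), so that IL-6 raised *Ccl4* more over IL-13 than over IL-4. These were the 2 of 7 tested members called lower in this comparison, where 4.42% of all genes were called lower. None of the members (0 of 7, also 0 at an unadjusted p under 0.05 in edgeR and 0 in DESeq2) was called higher, where 3.22% of all genes were. Over all genes the split was 449 higher and 616 lower with TMM and 352 and 757 with upper-quartile factors. The term was -0.33 for *Ccl6* (interval -0.56 to -0.10, adjusted p = 0.0862, edgeR), -0.02 for *Ccl9* (interval -0.23 to 0.19), 0.51 for *Ccl22* (interval -0.86 to 1.89) and -1.21 for *Ccl5* (interval -2.99 to 0.58). Over the alternatives the term ranged from 0.04 to 1.25 for *Ccl22*, with no call, and from -2.10 to -0.36 for *Ccl5*, which passed without a filter (-1.24, adjusted p = 0.0362, edgeR). For *Ccl6* it passed in 6 alternatives, with adjusted p values between 0.00073 without IL-4/IL-6 replicate 2 and 0.0428 in DESeq2, and in the fit without IL-13 replicate 1 it was 0.0327.

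The ratio of *Ccl4* to *Ccl3* counts within a library does not depend on the scaling of libraries. It was 0.368 ± 0.0436 in control (SD, n = 3), 0.75 ± 0.0598 in IL-13 and 0.992 ± 0.086 in IL-4. It was 2.1 ± 0.335 in IL-4/IL-6 and 2.14 ± 0.0686 in IL-13/IL-6. No library of a combination was below 1.77 and no other library was above 1.07. The ranges of the 2 combinations, 1.77 to 2.44 and 2.1 to 2.22, overlapped.

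**Figure D4:**
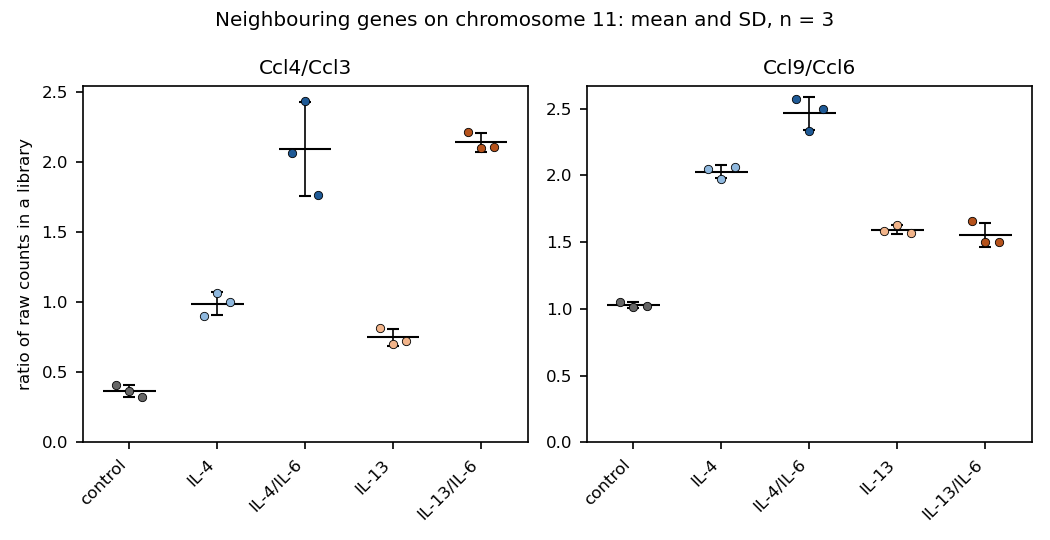
Ratio of raw counts of neighbouring genes on chromosome 11 in each library (points), with mean and SD, n = 3 per group. The ratio of *Ccl4* to *Ccl3* lies near 2 in both groups with IL-6 and near 1 or below elsewhere, and the ratio of *Ccl9* to *Ccl6* is highest in IL-4/IL-6.

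*Ccl5* (ENSMUSG00000035042, minus strand of chromosome 11, 83525778 to 83530518, GRCm38), whose product acts on CCR1 and CCR3, had between 12 and 145 counts. Its normalized CPM was 2.03, 2.16 and 2.3 in control and 1.5, 0.664 and 2.07 in IL-4. It was 1.08, 0.707 and 3.17 in IL-4/IL-6 and 1.77, 2.08 and 0.927 in IL-13. It was 3.47, 1.3 and 8.07 in IL-13/IL-6. Every group overlapped with the next, and IL-13/IL-6 replicate 3 was the highest library, followed by replicate 1 of that group and by IL-4/IL-6 replicate 3.

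None of the 9 comparisons called *Ccl5*. The nearest was IL-13/IL-6 over IL-13 (1.43, interval 0.25 to 2.61, adjusted p = 0.0709, edgeR), which passed in 5 alternatives, among them the fit without IL-13/IL-6 replicate 2 (1.86, adjusted p = 0.011). IL-13/IL-6 over control also passed without that library (1.42, adjusted p = 0.0162) and without a filter. IL-4/IL-6 against IL-13/IL-6 passed in 3 alternatives, with -2.26 (adjusted p = 0.00825) without IL-4/IL-6 replicate 3, -1.81 (0.013) without IL-13/IL-6 replicate 2 and -1.39 (1.75e-06) without a filter. For IL-4 over control the value was -0.61 (interval -1.89 to 0.67), an interval that holds 0 and moderate changes of either sign. The libraries with the most *Ccl5* also held the most of *Cxcl10*, an interferon-induced chemokine gene, with 1.57 to 7.51 normalized CPM over the IL-13/IL-6 libraries and 5.01 in IL-4/IL-6 replicate 3. The summed level of 10 interferon-raised genes was 210.3, 191.3 and 433.0 normalized CPM in replicates 1, 2 and 3 of IL-13/IL-6, where *Ccl5* was 3.47, 1.3 and 8.07. Across groups this sum and *Ccl5* did not keep one order, since it was 237.4, 301.7 and 248.7 in IL-13, where *Ccl5* was at most 2.08, and 95.9, 113.4 and 114.7 in control, where *Ccl5* was at least 2.03. The part of interferon-raised genes in the level of *Ccl5* was not tested. T cells and NK cells are another source of *Ccl5*. Their 10 markers summed to between 25.2 and 31.5 normalized CPM in control, mostly *Cd4* (27.1 on average) with *Nkg7* at 0.912, and to at most 1.07 in the treated libraries. Only *Cd4* and *Nkg7* were tested. At such treated levels both could pass the filter through control alone, so their falls are not counted. *Cd3e*, *Gzma* and *Prf1* were at 0 in all 15 libraries. The part of such cells in the level of *Ccl5* was not tested.

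The CCR1 ligands *Ccl6* and *Ccl9* were the most abundant of the 8 and lie next to each other on the minus strand of chromosome 11 (GRCm38). *Ccl9* (ENSMUSG00000019122) spans 83572919 to 83578636 and *Ccl6* (ENSMUSG00000018927) 83587882 to 83593087, with 9245 bases between them. Because these neighbours differed in their response, both promoters are shown, cut and read as above, 5′ to 3′ on the minus strand. Here GGG and TTCC with any 3 bases between them, a motif bound by NF-kB, was searched on both strands as well, and its matches are also in capitals. The windows are chr11:83578587-83578886 for *Ccl9* and chr11:83593038-83593337 for *Ccl6*.
Ccl9: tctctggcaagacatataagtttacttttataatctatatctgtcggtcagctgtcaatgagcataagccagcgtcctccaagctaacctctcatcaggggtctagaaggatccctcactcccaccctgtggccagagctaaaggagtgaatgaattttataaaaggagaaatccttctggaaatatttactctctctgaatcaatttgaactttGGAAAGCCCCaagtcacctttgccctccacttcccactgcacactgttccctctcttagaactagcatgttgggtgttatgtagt
Ccl6: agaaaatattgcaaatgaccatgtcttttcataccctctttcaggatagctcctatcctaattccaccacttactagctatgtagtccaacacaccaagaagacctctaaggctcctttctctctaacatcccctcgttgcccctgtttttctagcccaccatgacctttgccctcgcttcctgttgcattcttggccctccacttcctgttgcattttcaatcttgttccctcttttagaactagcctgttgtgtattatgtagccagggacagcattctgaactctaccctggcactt
The *Ccl9* window held GGAAAGCCCC, a match on the opposite strand from 35 bases before the start, and the *Ccl6* window held none of the 3 motifs. Matches to this motif were in 5.56% of the 32851 promoters, and neither *Ccl17* nor *Ccl22* held one. The *Ccl3* window held no match to any of the 3, and the tables used here gave promoters for 5 of the 8 members.

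For *Ccl9*, the normalized CPM was 395, 391 and 365 in control and 794, 752 and 827 in IL-4. It was 1007, 1140 and 978 in IL-4/IL-6 and 665, 636 and 591 in IL-13. It was 882, 814 and 827 in IL-13/IL-6. IL-4/IL-6 was above all other groups, IL-13/IL-6 overlapped with IL-4, and IL-13 lay between these and control.

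*Ccl9* rose 2.06-fold with IL-4 (log2 fold change 1.04, SE 0.0703, adjusted p = 8.69e-10, edgeR) and 1.64-fold with IL-13 (log2 fold change 0.72, SE 0.0700, adjusted p = 1.41e-07, edgeR). IL-6 added a log2 fold change of 0.40 over IL-4 (interval 0.25 to 0.54, adjusted p = 0.000175, edgeR; 0.31 without IL-4/IL-6 replicate 2) and 0.42 over IL-13 (interval 0.27 to 0.56, adjusted p = 0.000193, edgeR). These are small changes, of 1.32-fold and 1.33-fold, in a gene with between 6513 and 19353 counts a library. *Ccl9* was also higher in IL-4 than in IL-13 (0.33, adjusted p = 0.00399, edgeR) and in IL-4/IL-6 relative to IL-13/IL-6 (0.31, adjusted p = 0.00254, edgeR).

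*Ccl6* was highest in IL-13/IL-6. Its normalized CPM was 377, 389 and 357 in control and 387, 381 and 401 in IL-4. It was 421, 390.3 and 376 in IL-13 and 392, 489.8 and 390.3 in IL-4/IL-6. It was 531, 543 and 551 in IL-13/IL-6. The IL-13/IL-6 libraries lay above all others, each of the remaining groups overlapped with the next, and IL-4/IL-6 replicate 2 stood above the other 2 libraries of its group.

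IL-13/IL-6 raised *Ccl6* 1.37-fold over IL-13 (log2 fold change 0.45, interval 0.29 to 0.62, adjusted p = 0.00026, edgeR), and the level was lower in IL-4/IL-6 relative to IL-13/IL-6 (-0.35, adjusted p = 0.0022, edgeR). IL-4 gave 0.06 over control (interval -0.11 to 0.22), IL-13 gave 0.08 (interval -0.08 to 0.25) and adding IL-6 to IL-4 gave 0.12 (interval -0.04 to 0.29), none of which was called. The call of IL-4/IL-6 over control (0.18, adjusted p = 0.0465, edgeR) was lost in 10 alternatives, with upper-quartile factors, library totals alone and the replicate block among them, and without IL-4/IL-6 replicate 2 the value was 0.09 (adjusted p = 0.173). *Ccl6* overlaps E230016K23Rik on the opposite strand, and the sources used here do not state whether counting used the strand, so reads of the 2 genes may not have been told apart.

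Within a library, the ratio of *Ccl9* to *Ccl6* counts was 1.03 ± 0.0204 in control (SD, n = 3), 2.03 ± 0.049 in IL-4 and, with IL-6 added, 2.47 ± 0.124. It was 1.59 ± 0.0314 in IL-13 and 1.55 ± 0.0928 in IL-13/IL-6. So the ratio was between 2.33 and 2.57 in IL-4/IL-6, above the 1.97 to 2.06 of IL-4, while the ranges of IL-13 (1.57 to 1.63) and IL-13/IL-6 (1.5 to 1.66) overlapped. Transcripts of the genes share no stretch longer than 25 bases.

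Levels of different genes were compared per length, as the mean FPKM of a group. In control the order was *Ccl6* (218 ± 7.98 FPKM, SD, n = 3), *Ccl9* (132 ± 5.27), *Ccl3* (52.2 ± 3.05), *Ccl4* (22.2 ± 1.72), *Ccl5* (2.35 ± 0.147), *Ccl22* (2.31 ± 0.435), *Ccl24* (0.147 ± 0.103) and *Ccl17* (0.0763 ± 0.132), where *Ccl5* and *Ccl22* did not differ beyond their spread. In IL-4/IL-6 *Ccl9* came first (322 ± 12 FPKM), then *Ccl6* (222 ± 19.6), and *Ccl24* rose from the seventh place in control to the third (171 ± 32.2), ahead of *Ccl4* (138 ± 26.3) by about the spread between libraries. In IL-13/IL-6 *Ccl6* was first (295 ± 6.34 FPKM) with *Ccl9* (269.7 ± 10.1) and *Ccl4* (175 ± 14.1) next, and *Ccl24* was the fifth (24.2 ± 1.32). *Ccl9* overtook *Ccl6* in both groups with IL-4 and stayed below it in both with IL-13. Rescaling the values to TPM changed no place in any of the 5 groups.

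Receptors of these ligands were followed in the same libraries. *Ccr1*, the receptor of CCL6, CCL9, CCL3 and CCL5, had a normalized CPM of 48.6, 50.2 and 44.1 in control and 102, 93.1 and 100.3 in IL-4. It had 251, 272 and 236 in IL-4/IL-6, 68, 71.9 and 59.4 in IL-13 and 286, 303 and 265 in IL-13/IL-6. *Ccr1* thus lay higher in both groups with IL-6 than in all others, with log2 fold changes of 1.36 over IL-4 (adjusted p = 4.89e-10, edgeR) and 2.1 over IL-13 (adjusted p = 6.79e-12, edgeR).

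*Ccr3*, the receptor of CCL24, had 1.2, 1.28 and 0.898 in control, 26.4, 30.9 and 30.7 in IL-4 and 42.5, 42.3 and 42.2 in IL-4/IL-6. It had 17.6, 21.2 and 15.8 in IL-13 and 78.3, 65.2 and 70.9 in IL-13/IL-6. No 2 groups overlapped, and unlike *Ccl24*, which was highest in IL-4/IL-6, *Ccr3* was highest in IL-13/IL-6 (-0.76 for IL-4/IL-6 over IL-13/IL-6, adjusted p = 1.73e-05, edgeR). IL-6 raised it by 0.53 over IL-4 (adjusted p = 0.000476, edgeR) and by 1.98 over IL-13 (adjusted p = 1.89e-10, edgeR). *Siglecf* averaged 4.37 normalized CPM in IL-13 and 1.06 in IL-13/IL-6, and the part of eosinophils in the level of *Ccr3* was not tested.

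The interaction term was -0.74 for *Ccr1* (adjusted p = 0.000445, edgeR) and -1.45 for *Ccr3* (adjusted p = 6.41e-06, edgeR), so the IL-6 effect on both was larger with IL-13, as it was for *Ccl3* and *Ccl4*. *Ccr4*, the receptor of CCL17 and CCL22, had at most 1 count in any library and the scavenging receptor gene *Ackr2* at most 2. *Ackr1*, an atypical receptor of erythroid and endothelial cells, had counts of 2, 6 and 7 in control and 0 in the 12 treated libraries.

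**Figure D5:**
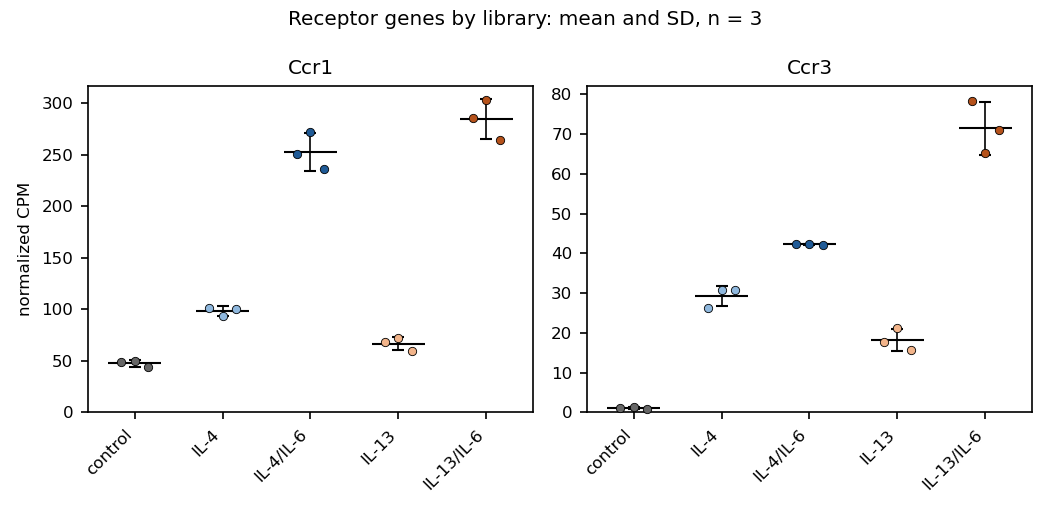
Normalized CPM of the receptor genes *Ccr1* and *Ccr3* in each library (points), with mean and SD, n = 3 per group. For both, the 3 IL-13/IL-6 libraries include the highest of all 15.

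Other genes of these pathways were counted from lists chosen by function. Of the 13 remaining CC chemokine genes, 7 were tested. One of these, *Ccl1*, passed the filter through IL-4/IL-6 alone, the group where it is high, and is left out of the counts. Of the other 6, IL-6 raised 4 over IL-4 (median 3.02, and 0.04 over all genes, of which 20.7% rose and 18.7% fell) and 4 over IL-13 (median 3.24, and 0.01 over all genes, of which 12.1% rose and 13.5% fell). It lowered 0 in either (0 at an unadjusted p under 0.05 in edgeR and 0 in DESeq2). *Ccl8*, encoding MCP-2, had log2 fold changes of 6.96 and 7.37 in these comparisons. *Ccl1*, with counts of 0 in all IL-4 libraries, had a mean of 1.00 normalized CPM in IL-4/IL-6, and *Ccl12* gave 6.75 over IL-13.

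Of 12 genes raised through STAT6, 11 rose and 1 fell in IL-4 over control (median 2.71, and -0.05 over all genes, of which 32.1% rose and 35.9% fell), and 10 rose and 1 fell in IL-13 (median 1.47, and -0.02 over all genes, of which 29.0% rose and 31.1% fell). *Retnla*, encoding RELM-alpha, was at 0 in control and in IL-4 at least 4460-fold higher (3 counts in each control library as the floor), and *Tgm2*, encoding transglutaminase 2, was the 1 that fell (-1.70). The part of STAT6 in the levels of *Ccl22* and *Ccl17* was not tested. Adding IL-6 to IL-4 raised 7 and lowered 5 of them (median 0.36, and 0.04 over all genes, of which 20.7% rose and 18.7% fell), with *Mrc1* (3.13) rising most, and *Irf4* (-3.51) and *Egr2* (-1.90) falling most. Over 22 alternatives the number raised was 4 to 7, since *Tgm2*, *Socs1* and *Cish* lost their calls in 5, 4 and 2 of them, and the number lowered stayed at 5. Adding IL-6 to IL-13 raised 5 and lowered 4 (median 0.02, and 0.01 over all genes, of which 12.1% rose and 13.5% fell), or 4 to 5 and 4 over the alternatives.

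Of 15 genes raised through NF-kB, 14 were tested. IL-6 raised 6 and lowered 3 over IL-4 (median 0.08, and 0.04 over all genes, of which 20.7% rose and 18.7% fell), and raised 6 and lowered 2 over IL-13 (median 0.15, and 0.01 over all genes, of which 12.1% rose and 13.5% fell). Over IL-4, *Ier3* (2.21) and *Icam1* (1.72) rose most, and *Nfkbie* (-0.96) and *Tnf* (-0.66) fell most. The rises of *Nfkb1* and *Nfkbiz* over IL-4 were each lost in 19 of 22 alternatives, that of *Relb* over IL-13 in 21 of 22 and the fall of *Nfkbia* over IL-4 in 5. Over the alternatives the counts were 4 to 6 higher and 2 to 3 lower over IL-4, and 5 to 6 higher and 0 to 2 lower over IL-13. The part of NF-kB in the rise of *Ccl4* was not tested. Over IL-13, *Ier3* (1.97) and *Ptgs2* (1.93) rose most, and *Tnf* (-0.48) and *Nfkbie* (-0.37) fell most. The falls of *Tnf* and *Nfkbie* over IL-13 were both lost without IL-13/IL-6 replicate 2 (adjusted p = 0.126 and 0.0685, edgeR), and that of *Tnf* also without IL-13 replicate 1 (0.0888).

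Of 10 genes raised by interferon, IL-6 raised 1, *Usp18* (0.52), and lowered 4 over IL-4 (median -0.66, against the same shares and median over all genes as for NF-kB), with *Ifit3* (-1.32) and *Oasl2* (-1.21) falling most. The call of *Usp18* was lost in DESeq2 (adjusted p = 0.0515) and in 11 of the 15 fits that left out 1 library, and that of *Ifit3* without IL-4/IL-6 replicate 1 (0.0627). The fall of *Mx1* was lost in 8 of 22 alternatives, without IL-4/IL-6 replicate 2 among them (0.0967), and that of *Irf7* in 2, so that the counts were 0 to 1 higher and 1 to 6 lower over the alternatives. Over IL-13, 0 were called in either direction by edgeR and by DESeq2, and 1 had an unadjusted p under 0.05 in edgeR. The median was 0.22, and 0.01 over all genes, of which 12.1% rose and 13.5% fell. Over all alternatives 0 to 4 were called higher and 0 to 3 lower.

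Likeness of pattern was described by Pearson's r of log2 CPM over the 15 libraries, which share 5 groups, so that a high r mostly restates a like order of groups. For *Ccl24* the tested genes outside the 8 with the highest r were *Snx5* (0.991) and *Acy1* (0.99). For *Ccl9* they were *Eef1g* (0.992) and *Ap2m1* (0.991), and for *Ccl4* *Gm5150* (0.985) and *Zfp36* (0.983). They were *Dbf4* (0.962) and *Cdkn1c* (0.953) for *Ccl22*, *Gm3571* (0.962) and *Ifitm2* (0.944) for *Ccl6*, *Pmvk* (0.901) and *Saa3* (0.865) for *Ccl3*, and *Cxcl10* (0.927) and *Il1b* (0.849) for *Ccl5*. Among the members, *Ccl24*, *Ccl9* and *Ccl4* were the most alike (0.948 for *Ccl24* with *Ccl9*, 0.928 for *Ccl24* with *Ccl4* and 0.914 for *Ccl9* with *Ccl4*), *Ccl3* lay nearest to *Ccl4* (0.833), *Ccl22* ran opposite to *Ccl4* (-0.862) and *Ccl24* (-0.818), and *Ccl5* stayed between -0.117 and 0.329 with all others.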

How the data were processed

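The authors sequenced mRNA of 15 libraries. They deposited a matrix of raw counts for 53465 gene identifiers, 53274 of them with a symbol, and lists of FPKM (fragments per transcript length and library size) for 26080 genes. The submitters' processing notes name GRCm38, HISAT2 2.1.0, Bowtie2 2.2.3, TopHat2, CASAVA and DESeq2 without their roles, and strand use in counting is not given in the sources used here. Groups came from the labels. Library totals were 17001352 to 18918686, and 3 counts in a library, the level a count of 0 allows, are 0.154 to 0.177 normalized CPM.

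Counts of all libraries entered 1 quasi-likelihood fit (edgeR 4.0.16, R 4.3.3) with TMM factors, after filterByExpr with a minimum count of 10 had left 13938 genes. P-values were adjusted by Benjamini-Hochberg over these genes in each of 9 comparisons, and an adjusted p under 0.05 was a call. Log2 CPM for correlations used a prior count of 2. Tables were made with Python 3.11.15, pandas 2.3.3 and scipy 1.17.1. The procedure was tested on simulated data. FPKM served only to order genes by level.

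Alternatives were DESeq2 1.42.0, upper-quartile factors, library totals alone, no filter, the replicate number as a block, 9 libraries in the fit, each library left out in turn and, chosen after seeing the data, a fit of 12 libraries without control. The members and gene lists were chosen with earlier results of these data known. Named were all 8 members, the receptors, the 2 called genes of each other list with the largest rise and the 2 with the largest fall in a comparison, and the 2 genes most like each member. Marker genes and single genes given beside a result were named after their values were seen. A receptor and a gene of the STAT6 list that the rule names are not reported here.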

Additional observations from a re-analysis of the deposited data

Results flagged for a closer look

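The effect of IL-6 on *Ccl3* differed between IL-4 and IL-13, by -0.653 on the log2 scale (adjusted p = 0.000983, edgeR). *Ccl3* was higher in 3 of 3 IL-13/IL-6 libraries than in every IL-13 library, while IL-4/IL-6 and IL-4 overlapped. The effect on *Ccl4* differed by -1.077 (adjusted p = 0.000987, edgeR), where all 3 libraries of each combination lay above all 3 of the matching single cytokine. These differences stood out because the interaction itself passed the test. IL-4 and IL-13 were used at different doses, and the part of dose in these differences cannot be told apart from that of the cytokine.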

How the results depend on the processing

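Of 1337 member log2 fold changes recomputed under the alternatives, 1278 kept direction and side of the threshold, 24 lost a call, 21 gained one and 14 changed sign, each in a result that was not called. When 1 library was left out, IL-4/IL-6 against IL-4 ranged from -0.67 to 0.58 for *Ccl5* and from -0.0082 to 0.16 for *Ccl6*. IL-4 over IL-13 ranged from -0.39 to 0.038 for *Ccl22*, from -0.54 to 0.18 for *Ccl5* and from -0.060 to 0.031 for *Ccl6* (0.0061 with upper-quartile factors). IL-4/IL-6 against IL-13/IL-6 ranged from -0.12 to 1.09 for *Ccl22*, and the difference of the IL-6 effects from -0.090 to 0.021 for *Ccl9*. Of 41 called results, 36 were called in every alternative run. The number of members lower with IL-4/IL-6 relative to IL-4 was 0 with the replicate block and 0 with control left out, and 0 to 1 when 1 library was left out. For IL-13/IL-6 over IL-13 it was 0 to 1 when 1 library was left out. The number higher with IL-4/IL-6 relative to control was 3 with library totals alone, where the median of all genes moved from -0.05 to -0.19. The number lower with IL-4/IL-6 relative to IL-13/IL-6 was 4 without a filter and 1 to 3 when 1 library was left out, and the number lower for the difference of the IL-6 effects was 4 without a filter and 2 to 4 when 1 library was left out. The cause was not tested. Libraries with the same replicate number did not deviate together (median correlation -0.008 over 30 pairs, 3 of them over 0.1, and 3 of 15 libraries closest to their own number), so the replicate block is an alternative only. Depth limits *Ccl17*, *Ccl22* and the control level of *Ccl24*, while *Ccl5* was low and also varied between libraries of a group.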
